A study of Homo sapiens with 72 samples.

Results

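Interferon-stimulated genes are the genes that a cell switches on after type I or type III interferon binds its receptor. The 41 genes described here were named by symbol as a list of well known members of that programme, and all 41 were found among the 23170 genes counted. Their transcripts were counted in normal human dermal fibroblasts of wildtype genotype, which are primary skin cells, by DRUG-seq, which reads the 3′ ends of polyadenylated RNA from barcoded lysates of a 384-well plate. Omaveloxolone was given for 24 hours at 0.0005, 0.002, 0.005, 0.014, 0.04, 0.12, 0.37, 1.11, 3.33 or 10 µM, with 4 wells at each dose, and 32 further wells received the solvent DMSO. The compound is a triterpenoid that releases the transcription factor NRF2 from its inhibitor KEAP1. No well received interferon, so the values are levels without an added inducer. Rows K and L of the plate held the treated wells, while DMSO wells filled columns 2 and 23. The labels call the wells biological replicates but name no separate cultures or donors, so p-values measure the spread between wells, which may be technical.

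Type I interferon signals through the kinases JAK1 and TYK2 to factors that include STAT2, which joins IRF9 to bind a DNA element known as the ISRE. The products block viruses at several steps. OAS enzymes and the kinase encoded by EIF2AK2 recognise double-stranded RNA, IFIT proteins bind foreign RNA ends, IFITM proteins hinder fusion of viruses with membranes, and MX proteins are GTPases that trap viral particles. ISG15 is a ubiquitin-like protein that is attached to other proteins by HERC5. Fibroblasts hold many of these transcripts at a basal level.

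Promoter sequence was read from RefSeq windows of GRCh38.p14 that hold 250 bases before and 50 after each start site, and 34 of the 41 genes matched. The ISRE core, GAAA then 2 bases of any kind then GAAA on either strand, was present in 22 of these 34 windows (64.7%), against 1255 of 35116 windows of all genes (3.57%). The antioxidant response element core bound by NRF2 with small MAF proteins, TGACNNNGC on either strand, was present in 8 of 34 (23.5%), against 13.3% of all windows. A match is a description of letters and not a bound site. The 3 windows printed here belong to the ISRE-bearing genes with the highest CPM in DMSO, and each ISRE core is in capitals.
IFITM3, chr11:320811-321110, minus strand: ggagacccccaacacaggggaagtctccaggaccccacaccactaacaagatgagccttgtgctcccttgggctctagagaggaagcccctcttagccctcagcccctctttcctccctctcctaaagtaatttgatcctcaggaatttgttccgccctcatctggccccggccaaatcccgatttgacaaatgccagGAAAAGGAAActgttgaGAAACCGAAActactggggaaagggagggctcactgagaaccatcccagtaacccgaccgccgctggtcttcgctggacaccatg
EIF2AK2, chr2:37156931-37157230, minus strand: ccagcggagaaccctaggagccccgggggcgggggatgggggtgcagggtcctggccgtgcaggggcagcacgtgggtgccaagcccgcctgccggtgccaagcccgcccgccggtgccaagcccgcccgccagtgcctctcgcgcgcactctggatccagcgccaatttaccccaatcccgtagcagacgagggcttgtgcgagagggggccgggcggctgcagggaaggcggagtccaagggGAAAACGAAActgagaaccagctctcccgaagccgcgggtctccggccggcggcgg
IFI27, chr14:94110486-94110785, plus strand: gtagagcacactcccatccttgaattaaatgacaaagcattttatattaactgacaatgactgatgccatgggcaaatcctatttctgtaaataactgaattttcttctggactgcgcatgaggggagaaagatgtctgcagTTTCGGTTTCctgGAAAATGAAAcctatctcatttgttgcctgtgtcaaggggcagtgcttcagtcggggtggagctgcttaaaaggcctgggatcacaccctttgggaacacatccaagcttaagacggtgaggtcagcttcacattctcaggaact
In IFITM3 the cores began 52 and 35 bases before the start site. In EIF2AK2 a single core began 6 bases before it. In IFI27 the cores began 108 bases before it on the other strand and 95 bases before it on the same strand.

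Levels are given as CPM, in which each well's counts are divided by its TMM-adjusted total. CPM is not divided by transcript length, so genes are not compared with each other by level. Total counts averaged 9877920 per well at 0.37 µM, and 1565622, 169669 and 30831 in order of dose at the 3 doses above it, against 6656984 ± 932165 in DMSO (SD, n = 32). A low total can come from fewer cells or from less RNA in each cell, and these cannot be told apart. All 10 fibroblast markers checked, among them COL1A1, DCN and PDGFRB, were detected at each dose. Their summed level lay between 33800 and 37900 CPM at 0.37 µM and between 66800 and 79400 CPM at 1.11 µM, against 67500 to 81700 CPM in DMSO. The 7 leukocyte markers measured summed to between 0.572 and 5.83 CPM at 0.37 µM and between 0.773 and 4.21 CPM at 1.11 µM, against 0.179 to 9.09 CPM in DMSO, and PTPRC was at 0 at 1.11 µM. Endothelial markers reached at most 0.332 CPM at 0.37 µM, against 5.36 CPM in DMSO. Whether these totals and markers have a part in the results below was not tested.

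Levels in DMSO varied little between wells for some genes and widely for others. IFITM3, a membrane protein that restricts virus entry, had 881 ± 97.5 CPM in DMSO (SD, n = 32), between 715 and 1138 CPM with a median of 884 CPM. IFITM2, its close paralogue, had 440 ± 47.4 CPM, between 359 and 564 CPM. IFI16, a sensor of DNA, had 249 ± 38.6 CPM, and TRIM22, a RING-finger protein with antiviral activity, had 123 ± 30.5 CPM. EIF2AK2, the RNA-dependent kinase PKR, had 83.3 ± 18.0 CPM, and STAT2 had 64.6 ± 12.9 CPM. The coefficient of variation over the 32 wells was 11.1% for IFITM3 and 10.8% for IFITM2. It was 285% for CMPK2, 238% for RSAD2, 230% for OASL and 226% for IFIT2. Without the DMSO wells C2 and J2, described below, these were 176%, 164%, 202% and 56.2%. CMPK2, RSAD2 and OASL had DMSO means of 3.32, 1.59 and 1.17 CPM, with 0 counts in 15, 13 and 11 of the 32 wells. Among the 29 members with a DMSO mean of at least 10 CPM the median coefficient of variation was 38.6%, where counting error alone gives a median of 7.49%. The same median over all 8064 genes at that level was 30.8%, with 6.47% from counting error.

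IFITM1, IFITM2 and IFITM3 lie side by side on chromosome 11 in GRCh38, in GENCODE release 29 at chr11:313506-315272, chr11:307631-315272 and chr11:319669-327537. IFITM2 and IFITM3 are close paralogues, and the annotated span of IFITM1 lies within that of IFITM2. Reads may therefore be split between these genes, and their values are uncertain in that respect. CMPK2, a mitochondrial nucleotide kinase at chr2:6840570-6866635 on the minus strand, overlaps RSAD2, the antiviral enzyme viperin at chr2:6865806-6898239 on the plus strand. PARP9 and DTX3L, which work as a complex, likewise overlap on opposite strands of chromosome 3. In both pairs the overlap lies at the start of each gene, away from the 3′ ends that DRUG-seq reads. Whether counting used strand is not given in the sources used here, so any reads in these overlaps cannot be told apart.

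In all, 3 wells stood apart, and they were picked after their values were seen. The measure was the mean over the 41 members of each well's log2 CPM minus the median of its own group. It was 1.11 in well L19, a well at 0.014 µM, and 1.43 and 0.80 in the DMSO wells J2 and C2. The other 61 wells up to 1.11 µM lay between -0.39 and 0.28, as the plot of deviation by dose shows.

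**Figure D1:**
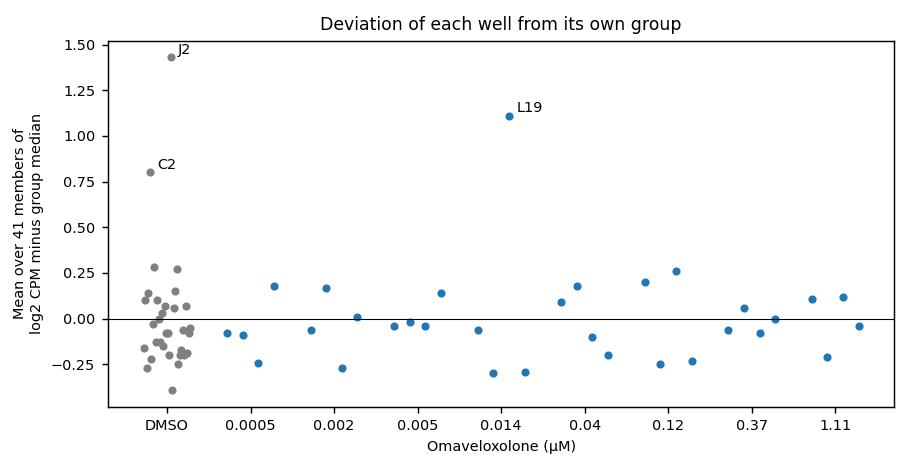
Mean over the 41 members of log2 CPM minus the median of the well's own group, for each well treated with omaveloxolone up to 1.11 µM (blue) and each DMSO well (grey). Wells L19 (1.11), J2 (1.43) and C2 (0.80) lie above all others, which stay at or below 0.28.

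ISG15 was raised in all 3 wells, and RSAD2, CMPK2 and IFI44L had the largest ratios to the median of the other wells in C2 and were among the 4 largest in J2. In J2, the member levels exceeded those of all 31 other DMSO wells for 17 of 41 genes (41.5%), while 3.1% of all 14259 genes tested did so. The wells were picked by these same members, so an excess over all genes in J2, C2 or L19 was partly fixed in advance. IFIT2 reached 192 CPM in J2, against a median of 8.55 CPM and a maximum of 25.9 CPM in the other DMSO wells. IFIT1 reached 149 CPM there, against a median of 20.2 CPM and a maximum of 37.9 CPM. CMPK2 reached 52.7 CPM, against a median of 0.155 CPM and a maximum of 12.6 CPM. RSAD2 (16.3 CPM), OASL (13.0 CPM) and IFI44L (9.38 CPM), with medians of 0.162, 0.159 and 0.130 CPM in the other DMSO wells, also exceeded all of them in J2.

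In C2, 3 of 41 members (7.32%) exceeded all other DMSO wells, against 4.0% of all genes, and these were ISG15, IFI6 and IFITM3. ISG15 reached 240 CPM in C2, with a median of 33.8 CPM and a maximum of 145 CPM in the other wells, that maximum being J2. IFI6, a mitochondrial and ER protein of small size, reached 108 CPM, against a maximum of 75.8 CPM. RSAD2 (14.4 CPM), CMPK2 (9.92 CPM) and IFI44L (7.76 CPM) were also far over the medians of the other wells, 0.162, 0.155 and 0.130 CPM, and each was higher still in J2. IFIT2 was at 4.87 CPM in C2, below the median of 8.62 CPM of the others.

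In L19, 31 of 41 members (75.6%) exceeded the other 3 wells at 0.014 µM, while 25.4% of all genes did so. IFI27, a mitochondrial protein strongly induced by type I interferon, reached 259 CPM in L19, and the other 3 wells lay between 52.1 and 77.1 CPM. IFI6 reached 227 CPM, with 31.0 to 38.9 CPM in the other wells. ISG15 reached 204 CPM, with 27.8 to 38.0 CPM in the others. IFI44L had 19.8 CPM in L19 and 0 counts in the other 3 wells, whereas IFIT2, at 8.47 CPM, lay within their range of 3.91 to 24.3 CPM.

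Of the 49 other genes of the pathway that were measured, 4 (8.16%) exceeded all other DMSO wells in J2 (USP18, ADAR, GBP1 and TAP1), against 3.1% of all genes, and 6 (12.2%) did so in C2, against 4.0%. In L19, 13 (26.5%) exceeded the other wells of the dose, close to the 25.4% of all genes. USP18, the protease that removes ISG15 from proteins, had 21.6 CPM in J2, with a median of 3.26 CPM and a maximum of 20.1 CPM in the other DMSO wells. Leukocyte markers summed to 3.09 CPM in L19, 1.21 CPM in J2 and 1.98 CPM in C2, all within the DMSO range of 0.179 to 9.09 CPM, whose median was 2.9 CPM. Their part in these levels was not tested. Endothelial markers summed to 2.42 CPM in L19 and to 0 CPM in J2 and C2.

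The members varied together only weakly between DMSO wells, and the median correlation was near 0 when wells C2 and J2 were left out. Over the 406 pairs of the 29 members with a DMSO mean of at least 10 CPM, the median Pearson r of log2 CPM across the 32 wells was 0.106, where the median over all pairs of 8064 genes was -0.0007. A total of 11 pairs (2.71%) had r over 0.5, against 0.581% of pairs of all genes. Without wells C2 and J2 the median r was -0.0004 and 4 pairs (0.985%) were over 0.5, against 0.681% of pairs of all genes. The median r was 0.034 within column 23 and 0.165 within column 2, where both wells lie. These correlations are descriptions, since wells share the plate and pairs share genes.

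IFITM3 and IFI27 had r = 0.755 over the 32 wells, and 0.664 without C2 and J2. Within column 23 their r was 0.347, and within column 2 it was 0.780. ISG15 and IFI27 had r = 0.670, 0.505 without C2 and J2, 0.240 within column 23 and 0.692 within column 2. All 3 genes were lower in column 23 than in column 2, so the values over both columns include that shift. EIF2AK2 and IFI44, a cytoplasmic protein induced by interferon, had r = 0.590, 0.529 without C2 and J2, 0.606 within column 23 and 0.722 within column 2. Neither of these 2 genes was called between the columns. ISG15 followed the mean of the other 28 members with r = 0.76, and 0.44 without C2 and J2. For IFIT1 the same value was 0.55 and then 0.05. For IFIT3 it was 0.30 and then -0.39, a change of sign. For STAT2 (-0.02) and IFITM2 (-0.05) it was near 0 in the 32 wells.

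Among the 6 members with the highest CPM in DMSO, 15 pairs were tested with 100000 permutations of wells, two-sided and adjusted over 15 pairs and both measures by the Benjamini-Hochberg method. IFITM3 and IFITM2 passed, with Pearson r = 0.665 (p = 4e-05, adjusted p = 0.0006) and Spearman rho = 0.745 (p = 2e-05, the smallest these permutations can give, adjusted p = 0.0006). Wells were permuted over both columns, and both genes were lower in column 23, so these values include that shift. Reads may also be split between these paralogues, as stated above. Without the 2 wells farthest from the IFITM3 median r was 0.730. Within column 23 r was 0.872 (permutation adjusted p = 0.0006), and within column 2 it was 0.216 (permutation adjusted p = 0.865). Without C2 and J2 r was 0.780 over the 30 other wells (permutation adjusted p = 0.0003). Within column 2 without them it was 0.491, given as a description. The low value within column 2 thus rested in part on those 2 wells. No other pair passed, and the next was IFI16 with EIF2AK2 (r = 0.370, permutation p = 0.0388, adjusted p = 0.388).

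**Figure D2:**
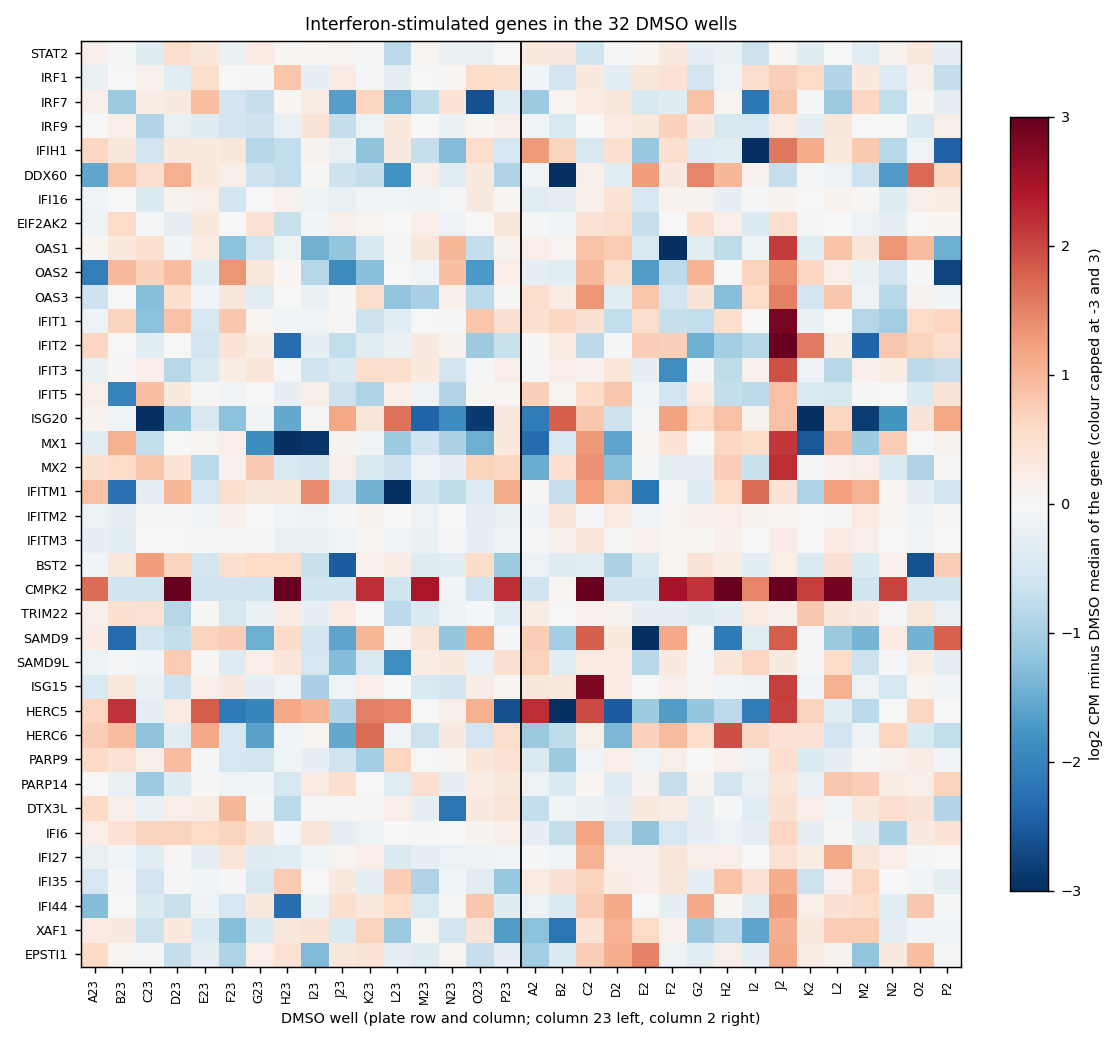
Log2 CPM of each member with a DMSO mean of at least 3 CPM (rows, in role order) minus its median over DMSO wells, in the 16 wells of column 23 (left of the line) and the 16 of column 2 (right). Wells C2 and J2 are red over many rows, while most other wells mix red and blue; colour is capped at -3 and 3.

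The 5 members that differed between the plate columns were all lower in column 23. Among 37 members tested, 0 were higher and 5 lower in column 23 than in column 2, where 687 of 11258 genes (6.1%) were called, 3.3% higher and 2.81% lower. IFITM3 had a median of 822 CPM (715 to 925) in column 23 and 932 CPM (815 to 1140) in column 2 (log2 change -0.22 ± 0.04 SE, edgeR quasi-likelihood adjusted p = 0.00044). IFI27 had a median of 51.2 CPM in column 23 and 65.2 CPM in column 2 (-0.44 ± 0.11, edgeR adjusted p = 0.00978). IFITM2 (-0.16), ISG15 (-0.86) and IFIT2 (-1.52) also passed. Their ranges overlapped between the columns. Without C2, J2 and L19, ISG15 and IFIT2 no longer passed, 3 members were lower and IFI6 was higher in column 23. With plate row as a block, IFITM3 and IFI27 passed.

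Across all doses, 29 of 41 members (70.7%) changed in an F test over the 10 dose terms of one edgeR fit, against 8050 of 14259 genes (56.5%). Without the wells at 3.33 and 10 µM the count was 19, and the share of all genes in that fit is not given here. From 0.0005 to 0.04 µM, 0 members were called at any of the 5 doses by edgeR or by DESeq2, while 0.00701%, 0.0561%, 0.0771%, 0.217% and 0.792% of all genes were called by edgeR from the lowest to the highest of these doses. Members with an unadjusted p under 0.05 numbered 1, 4, 1, 5 and 0, which is 2.44%, 9.76%, 2.44%, 12.2% and 0% of 41, against 4.61%, 5.4%, 4.19%, 5.66% and 7.8% of all genes. The median log2 change of the members was 0.03, -0.17, -0.15, 0.07 and -0.48 in the same order. The 4 wells at 0.014 µM include L19, in which 31 of the 41 members were highest. The summed level at that dose was 2854 ± 705 CPM (SD, n = 4), and the part of L19 in the 12.2% was not tested. At 0.005 µM 0.0631% of all genes were higher. All genes had medians between -0.05 and -0.02 at these doses. The summed level of the 41 genes was 2386 ± 66.7 CPM at 0.04 µM (SD, n = 4), against 2543 ± 307 CPM in DMSO (n = 32).

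**Figure D3:**
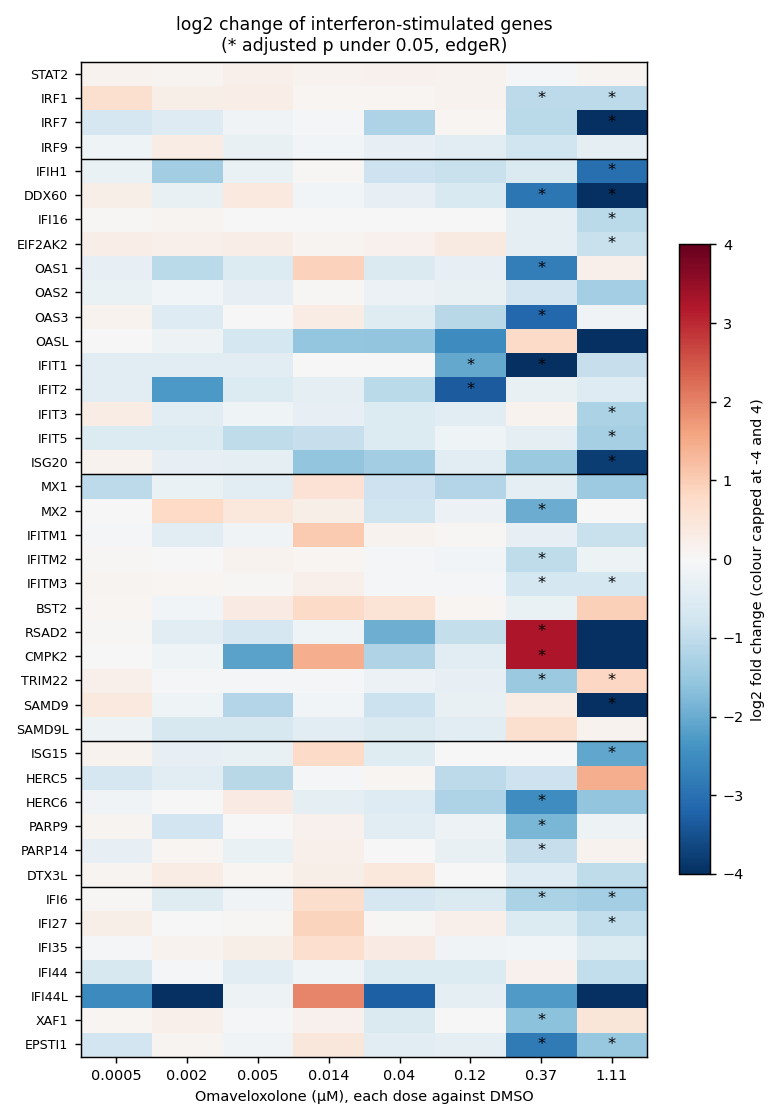
Log2 change of each of the 41 members (rows, grouped by role with lines between groups: signalling, sensors and RNA-binding effectors, membrane and GTPase effectors, ISG15 conjugation and ADP-ribosylation, others) at 8 doses against DMSO; asterisks mark an edgeR adjusted p under 0.05 and colour is capped at -4 and 4. Asterisks are on 2 genes at 0.12 µM, 17 at 0.37 µM and 16 at 1.11 µM, and CMPK2 and RSAD2 are red at 0.37 µM.

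At 0.12 µM, 2 of 41 members (4.88%) were called and both were lower, against 2.33% of all genes in either direction, 1.31% higher and 1.02% lower. They were the neighbours IFIT1 and IFIT2 on chromosome 10, whose proteins bind viral RNA. IFIT1 had 11.1, 6.16, 1.82 and 6.23 CPM at 0.12 µM, against 8.50 to 149 CPM with a median of 20.4 CPM in DMSO. Its log2 change was -2.04 ± 0.54 (SE, edgeR adjusted p = 0.0181), and the highest of the 4 wells overlapped the DMSO range. IFIT2 had 1.85, 1.50, 0.485 and 1.85 CPM at 0.12 µM, against 1.34 to 192 CPM with a median of 8.59 CPM in DMSO. Its log2 change was -3.34 ± 0.92 (edgeR adjusted p = 0.0268), and 3 wells lay inside the lower end of the DMSO range. Without C2, J2 and L19 these changes were -1.81 for IFIT1 and -2.65 for IFIT2. Both calls were fragile: the edgeR adjusted p of IFIT2 was 0.088 to 0.131 without any one of its 4 wells, that of IFIT1 was 0.0829 to 0.136 without replicate 2, 3 or 4, and with DMSO restricted to rows K and L they were 0.13 and 0.792.

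At 0.37 µM 15 members fell, while CMPK2 and RSAD2 rose. In all, 17 of 41 members (41.5%) were called, 2 higher (4.88%) and 15 lower (36.6%), against 24.8% of all genes, 11.2% higher and 13.6% lower. The median log2 change was -0.71 for the members and -0.14 for all genes. The summed level was 1609 ± 102 CPM at 0.37 µM (SD, n = 4), from 1458 to 1677 CPM, and all 4 wells lay below the lowest DMSO well, at 2228 CPM. The 4 wells lay below all 32 DMSO wells for 6 members, against 5.18% of all genes, and above all of them for 0 members, against 6.04%. Those 6 were IFIT1, OAS3, EPSTI1, TRIM22, IFITM2 and IFITM3.

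Of the 4 signalling factors, IRF1 fell and 0 rose. That is 25% called, near the 24.8% of all genes called, of which 13.6% were lower. IRF1, an activator that binds interferon response elements, had 13.9, 16.8, 7.95 and 13.6 CPM at 0.37 µM, against 13.5 to 45.3 CPM with a median of 25.3 CPM in DMSO (log2 change -1.06 ± 0.32, edgeR adjusted p = 0.00917). STAT2 had 65.9, 36.6, 68.8 and 81.3 CPM at 0.37 µM and a median of 65.7 CPM in DMSO (-0.03 ± 0.24, edgeR adjusted p = 0.941). IRF9, its DNA-binding partner, had 3.26 to 7.78 CPM at 0.37 µM and 4.99 to 15.6 CPM in DMSO (-0.80 ± 0.35, adjusted p = 0.082). IRF7 was not called at this dose.

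Of the 13 sensors and RNA-binding effectors, 4 fell and 0 rose. That is 30.8% called, not far from the 24.8% of all genes called, of which 13.6% were lower. IFIT1 had 1.26, 0.884, 0.306 and 1.13 CPM at 0.37 µM, well below its lowest DMSO well at 8.50 CPM. Its log2 change of -4.84 ± 0.67 (edgeR adjusted p = 1.77e-08) passed in each alternative tried. OAS3, one of the synthetases that make the activator of RNase L, had 1.71, 2.21, 3.26 and 0 CPM, against 5.88 to 42.5 CPM with a median of 14.8 CPM in DMSO (-3.14 ± 0.64, edgeR adjusted p = 7.13e-05).

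OAS1, of the same enzyme family, had 1.03, 0.773, 2.45 and 0.102 CPM at 0.37 µM, against 0.380 to 28.7 CPM in DMSO (-2.76 ± 0.81, edgeR adjusted p = 0.00669). DDX60, a helicase of antiviral RNA sensing, had 0.229, 2.10, 0.204 and 4.50 CPM, against 0.429 to 38.8 CPM in DMSO (-2.90 ± 0.71, edgeR adjusted p = 0.00104). The wells of OAS1 and DDX60 overlapped the lower end of the DMSO range. IFIT2 was back near its DMSO level, with 8.80, 23.2, 6.83 and 8.70 CPM at 0.37 µM and a DMSO median of 8.59 CPM. IFIT3 (0.14 ± 0.35) was not called either, so the IFIT genes of this cluster had unlike values at the same dose.

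Of the 11 membrane and GTPase effectors, 4 fell (36.4%) and 2 rose (18.2%), against 13.6% of all genes lower and 11.2% higher. IFITM3 had 592, 454, 578 and 530 CPM at 0.37 µM, against 715 to 1138 CPM in DMSO (-0.71 ± 0.13, edgeR adjusted p = 1.62e-05). IFITM2 had 241, 200.4, 214 and 213 CPM, against 359 to 564 CPM in DMSO (-1.02 ± 0.12, edgeR adjusted p = 1.99e-11). TRIM22 had 60.5, 33.8, 40.4 and 40.5 CPM, against 67.0 to 212 CPM in DMSO (-1.49 ± 0.26, edgeR adjusted p = 5.44e-06). The wells of these 3 genes did not overlap those of DMSO. MX2, which acts against retroviruses, was lower as well (-1.99), while its paralogue MX1 was not called (-0.37 ± 0.60).

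CMPK2 had 21.7, 32.3, 22.3 and 48.9 CPM at 0.37 µM, against 0 to 52.7 CPM with a median of 0.185 CPM in DMSO. Every DMSO well other than J2 was at or below 12.6 CPM. Its log2 change was 3.23 ± 1.01 (edgeR adjusted p = 0.0122), and 4.40 without C2, J2 and L19. RSAD2, named after its values were seen, had 3.54, 29.7, 8.36 and 19.0 CPM at 0.37 µM, against 0 to 16.3 CPM with a median of 0.163 CPM in DMSO (3.24 ± 1.05, edgeR adjusted p = 0.0157). The edgeR calls were lost without replicate 4 for both genes (adjusted p = 0.0663 for CMPK2 and 0.13 for RSAD2), for RSAD2 also without replicate 2, with DMSO restricted to rows K and L (0.111 and 0.123) and in the Wald test of DESeq2 (adjusted p = 0.157 and 0.103).

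Of the 6 genes of ISG15 conjugation and ADP-ribosylation, 3 (50%) fell and 0 rose, against 13.6% of all genes lower and 11.2% higher. They were PARP9, PARP14 and HERC6. PARP9 had 37.8, 6.85, 10.8 and 6.55 CPM at 0.37 µM, against 25.1 to 101 CPM with a median of 53.6 CPM in DMSO (-1.83 ± 0.41, edgeR adjusted p = 0.000292). Of the 4 wells, 3 lay below DMSO and replicate 1 lay inside its range. ISG15 itself had 37.1, 55.7, 52.1 and 34.1 CPM at 0.37 µM and a DMSO median of 34.3 CPM (0.01 ± 0.38, edgeR adjusted p = 0.985).

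Among the 7 other members, EPSTI1, XAF1 and IFI6 fell (42.9%) and 0 rose, against 13.6% of all genes lower and 11.2% higher. EPSTI1, first described in stromal and epithelial cells in culture together, had 3.54, 1.66, 4.89 and 1.02 CPM at 0.37 µM, against 6.85 to 50.5 CPM in DMSO (-2.82 ± 0.54, edgeR adjusted p = 2.79e-05). XAF1, a pro-apoptotic partner of the inhibitor XIAP, had 3.77, 7.96, 5.61 and 3.17 CPM, against 3.22 to 34.5 CPM in DMSO (-1.65 ± 0.50, edgeR adjusted p = 0.00834). Its 4 wells lay below the DMSO median, and 1 of them below the whole range. IFI44 (0.17 ± 0.38) and IFI35 (-0.12 ± 0.35) were not called.

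Of the 17 calls, 9 held at 0.37 µM without any one of the 4 wells: IFIT1, OAS1, OAS3, DDX60, IFITM2, IFITM3, TRIM22, PARP9 and EPSTI1. IRF1 was lost without replicate 3, IFI6 without 1, XAF1 without 4, HERC6 without 2 or 4, MX2 without 1 or 3 and PARP14 without 1, 2 or 4. With DMSO restricted to rows K and L, 7 members were called, all lower: IFIT1, OAS3, TRIM22, XAF1, EPSTI1, IFITM2 and IFITM3. The share of all genes called in that fit is not given here.

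**Figure D4:**
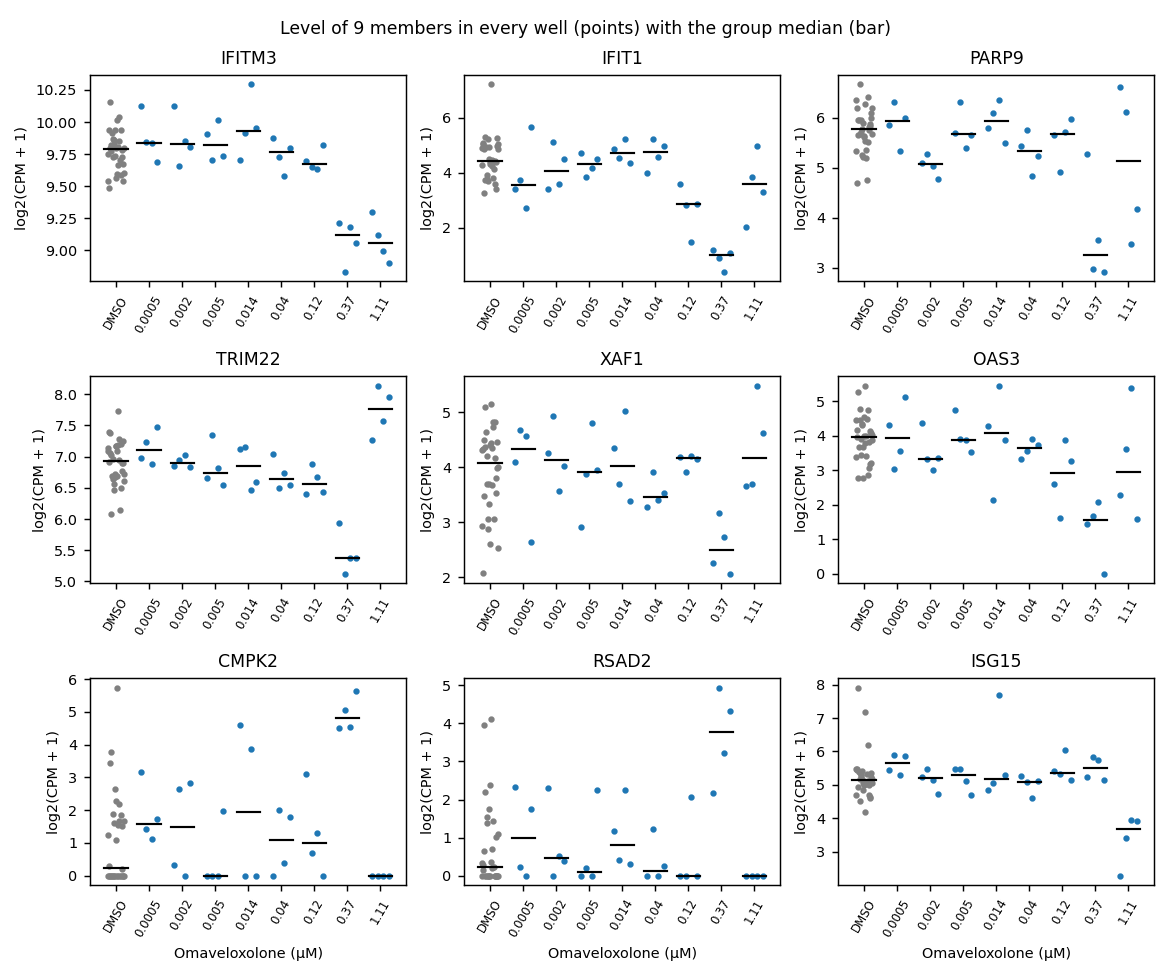
Level of 9 members, as log2(CPM + 1), in every well treated with omaveloxolone up to 1.11 µM (blue) and every DMSO well (grey); bars are group medians and the axes do not start at 0. IFITM3, IFIT1, TRIM22 and OAS3 lie below all DMSO wells at 0.37 µM, CMPK2 and RSAD2 are high at 0.37 µM and at 0 counts at 1.11 µM, and ISG15 is low at 1.11 µM.

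Between 0.12 and 0.37 µM, 8 of 41 members (19.5%) differed, 1 higher and 7 lower at 0.37 µM, against 8.13% of all genes, 2.52% higher and 5.6% lower. The lower ones were IFIT1 (log2 change -2.80), EPSTI1 (-2.46), PARP9 (-1.63), IRF1 (-1.19), TRIM22 (-1.15), IFITM2 (-0.90) and IFITM3 (-0.63). IFIT2 was the higher one (3.05 ± 1.01, edgeR adjusted p = 0.0448), and its call was lost without each single well of either dose other than replicate 3 of 0.37 µM. The calls of EPSTI1, IFITM2 and IFIT1 held without any one well, that of TRIM22 and that of IFITM3 failed without replicate 2 of 0.37 µM, that of PARP9 without replicate 4 of 0.12 µM or 2, 3 or 4 of 0.37 µM, and that of IRF1 without any one well. This fit counted 3 members without replicate 2 of 0.37 µM and 5 without replicate 4 of 0.12 µM.

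At 1.11 µM the members called lower included 5 that were also lower at 0.37 µM, namely IRF1, DDX60, IFITM3, IFI6 and EPSTI1, and both doses share the DMSO wells. Of 41 members, 16 (39%) were called, 1 higher and 15 lower, against 23% of all genes, 9.77% higher and 13.2% lower. The median log2 change was -0.998 for the members and -0.20 for all genes, and the summed level was 1802 ± 108 CPM at 1.11 µM (SD, n = 4), against 2543 ± 307 CPM in DMSO. The 7 members at 0 counts in all 4 wells were SAMD9, DDX60, CMPK2, RSAD2, IRF7, IFI44L and OASL. A count of 0 in these wells allows up to 0.567 CPM, from 3 counts over the 4 wells, and all 7 would have had at least 3 counts at their DMSO level. Of these, 3 were called lower: DDX60 was at least 23.4-fold lower than in DMSO, SAMD9 at least 19.4-fold and IRF7 at least 7.02-fold.

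ISG15 had 3.87, 9.70, 14.3 and 14.3 CPM at 1.11 µM, against 17.4 to 240 CPM with a median of 34.3 CPM in DMSO. Its log2 change was -2.07 ± 0.50 (edgeR adjusted p = 0.00126), it was -1.72 without C2, J2 and L19, and all 4 wells lay below all DMSO wells. IFIH1, the RNA sensor MDA5, had 0, 0, 5.89 and 0.680 CPM, against 0.985 to 36.6 CPM in DMSO (-3.03 ± 0.75, edgeR adjusted p = 0.00148). ISG20, an exonuclease, had 2 counts over the 4 wells, a ratio of 0.0604 to DMSO with an exact 95% counting interval from 0.00731 to 0.219 (edgeR adjusted p = 0.0359), and its call was lost without replicate 2, 3 or 4.

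IFITM3 stayed low, with 629, 556, 509 and 476 CPM at 1.11 µM (-0.70 ± 0.13, edgeR adjusted p = 4.26e-05). IFI16 had 175, 58.9, 137 and 102 CPM, against 172 to 338 CPM in DMSO (-1.08 ± 0.19, edgeR adjusted p = 1.06e-05), where replicate 1 alone reached into the DMSO range. EIF2AK2 had 15.5, 67.9, 53.0 and 42.1 CPM, against 48.7 to 119 CPM in DMSO (-0.90 ± 0.23, edgeR adjusted p = 0.00219), and lost its call without replicate 1 (adjusted p = 0.0552). IFIT3, IFIT5, IRF1, IFI6, IFI27 and EPSTI1 were the other members called lower.

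TRIM22 was the member called higher at 1.11 µM. It had 152, 280.5, 189 and 247 CPM, against 67.0 to 212 CPM with a median of 121 CPM in DMSO (0.83 ± 0.22, edgeR adjusted p = 0.00308). Of its wells, 2 lay above all DMSO wells, and with DMSO restricted to rows K and L the change was 0.63 (edgeR adjusted p = 0.368). All 4 wells lay below all DMSO wells for 5 members, against 3.32% of all genes, and above them for 0 members, against 2.26%. For IRF7, DDX60 and SAMD9 among these the lowest DMSO well was itself under 0.567 CPM, so IFITM3 and ISG15 were the members set apart by measured levels.

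Of the 16 calls at 1.11 µM, 8 held without any one well: IFIH1, TRIM22, DDX60, IFITM3, IFI16, IRF7, ISG15 and SAMD9. IFI6 was lost without replicate 2, IFIT3 without 1 or 4, IRF1 without 2 or 4, IFIT5 and IFI27 without 1 or 3, and EPSTI1 without 1, 2 or 4. With that restriction of DMSO to rows K and L, 7 were called, namely these 8 less TRIM22, and the share of all genes is again not given.

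The members called in the step between 0.37 and 1.11 µM split evenly by direction. At 1.11 µM 9 were higher and 9 lower than at 0.37 µM, 18 of 41 (43.9%), against 25.4% of all genes, 12.1% higher and 13.4% lower. Of all 41 members, called or not, 24 had a log2 change below 0 and 17 above 0. Their median was -0.44, against -0.14 for all genes. IFIT1 was higher, with 3.09, 13.4, 30.3 and 8.84 CPM at 1.11 µM, against 0.306 to 1.26 CPM at 0.37 µM (3.92 ± 0.72, edgeR adjusted p = 1.64e-05). TRIM22 was higher (2.31 ± 0.32, edgeR adjusted p = 3.32e-08), and its wells at the 2 doses did not overlap. IFITM2 was higher too, with 469, 315.5, 389 and 347 CPM at 1.11 µM, against 200.4 to 241 CPM at 0.37 µM (0.81 ± 0.14, edgeR adjusted p = 6.38e-06), while IFITM3 was not called (0.01 ± 0.17).

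OAS3 (2.99), OAS1 (2.97), XAF1 (2.14), MX2 (2.01), PARP9 (1.63) and PARP14 (1.08) were the other members higher at 1.11 µM. All 9 had been lower at 0.37 µM than in DMSO, and of these 9 only TRIM22 was called against DMSO at 1.11 µM. Both comparisons use the same wells at 0.37 µM, so this overlap is partly built in. ISG15 was lower (-2.08 ± 0.58, edgeR adjusted p = 0.00451), with 3.87 to 14.3 CPM at 1.11 µM, against 34.1 to 55.7 CPM at 0.37 µM. CMPK2, at 0 counts in the 4 wells at 1.11 µM, was lower than at 0.37 µM, where it had 21.7 to 48.9 CPM (edgeR adjusted p = 0.0207). RSAD2, SAMD9, DDX60, IRF7, IFIH1, IFIT3 and IFI16 were the other members lower at 1.11 µM.

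Of these 18 calls, 7 held without any one of the 8 wells, those of TRIM22, IFIT1, IFITM2, CMPK2, IRF7, ISG15 and SAMD9. OAS3 and XAF1 were lost without replicate 3 of 1.11 µM (edgeR adjusted p = 0.106 and 0.0539), and OAS1 without replicate 1 of 1.11 µM or 4 of 0.37 µM (up to 0.119). The other 8 calls were lost in 3 to 6 of the 8 such fits.

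At 3.33 and 10 µM few counts remained. Of 41 members, 23 (56.1%) were called at 3.33 µM, 1 higher and 22 lower, against 40.2% of all genes, 7.35% higher and 32.9% lower. At 10 µM 16 (39%) were called, 1 higher and 15 lower, against 35.2% of all genes, 3.35% higher and 31.8% lower. The median log2 change was -3.15 at 3.33 µM and -7.52 at 10 µM, against -2.32 and -5.51 for all genes, and with members at 0 counts set to their bound it was -1.03 and -0.38. At 3.33 µM 17 members had 0 counts in all wells, but 12 of these 17 would have had at least 3 counts at their DMSO level. At 10 µM 26 members had 0 counts, of which 14 would have had 3. IFITM3 had 866, 627, 618 and 1217 CPM at 3.33 µM, of which 1 lay inside the DMSO range, 2 below it and 1 above it, from 611 counts in all. ISG20, the member called higher at 3.33 µM, had 31 counts in replicate 3 and 0 in the other wells, and SAMD9, called higher at 10 µM, had 12 counts in replicate 3 and 0 in the others. Without 1 well the number called was 19 to 21 at 3.33 µM and 10 to 15 at 10 µM, with 10 at 10 µM without replicate 1 or without replicate 3.

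Other genes of the interferon pathway, 49 measured of 50 listed, included receptors, kinases, sensors and antigen presentation genes. At 0.04 µM 1 of 49 (2.04%) fell and 0 rose, against 0.189% of all genes lower and 0.792% called. The same gene alone was called at 0.12 µM, against 1.02% of all genes lower and 2.33% called, so the share called was near that of all genes. It was the MHC class I light chain B2M, which had 3139, 2968, 3857 and 2832 CPM at 0.12 µM, against 3467 to 5184 CPM in DMSO (-0.48 ± 0.10, edgeR adjusted p = 0.00102). At 0.37 µM 15 of 49 (30.6%) fell and 0 rose, against 13.6% of all genes lower and 11.2% higher. GBP2, a guanylate-binding protein, had 7.43, 0.663, 2.85 and 1.95 CPM at 0.37 µM, against 11.9 to 52.4 CPM in DMSO (-2.96 ± 0.43, edgeR adjusted p = 5.9e-08). PSMB9, an immunoproteasome subunit, had 12.0, 17.7, 14.0 and 16.4 CPM, against 49.6 to 117 CPM in DMSO (-2.30 ± 0.29, edgeR adjusted p = 4.42e-10).

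SOCS3, a feedback inhibitor of JAK kinases, had 6.29, 16.2, 19.4 and 20.7 CPM at 0.37 µM, against 37.2 to 96.5 CPM in DMSO (-2.03 ± 0.27, edgeR adjusted p = 4.49e-09). None of the wells of GBP2, PSMB9 or SOCS3 at this dose overlapped DMSO. The receptor chains IFNAR2 and IFNGR2, the kinase JAK1, STING1, SOCS1, UBA7, GBP1, PSMB8 and B2M were among the others that fell. At 1.11 µM 7 of 49 (14.3%) rose and 12 (24.5%) fell, against 9.77% of all genes higher and 13.2% lower. SOCS3 was then higher than DMSO (1.42 ± 0.20, edgeR adjusted p = 7.18e-08) and PSMB9 still lower (-1.33 ± 0.28, edgeR adjusted p = 0.00017). Against 0.37 µM, 11 (22.4%) were higher and 6 (12.2%) lower at 1.11 µM, where 12.1% of all genes were higher and 13.4% lower, so the share of lower ones was near that of all genes.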

How the data were processed

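Counts per gene and well, raw and without normalization, were deposited by the authors for 72 wells; the submitters' processing notes name kallisto, bustools and GRCh38. Their versions, the collapse of molecular identifiers and the use of strand are not given in the sources used here, so that counts may be reads rather than molecules. Intervals and floors therefore cover counting error alone. Of 23170 genes, 23078 matched GENCODE release 29. A total of 38 genes annotated on chromosome Y were left out, a choice made after the file was seen.

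All 72 wells were fitted together with the quasi-likelihood method of edgeR 4.0.16 (R 4.3.3, TMM, filterByExpr with a minimum count of 10, robust), leaving 14259 genes, with Benjamini-Hochberg adjustment per comparison and a threshold of 0.05. SE came from the F value. The DMSO columns were fitted alone (11258 genes). Alternatives used DESeq2 1.42.0 size factors and its Wald test, no filter, plate side, replicate block, DMSO restricted to rows K and L, and one well left out. Correlations used log2 CPM with a prior count of 2 (Python 3.11.15, SciPy 1.17.1). The fit was tested on simulated data.

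Members and lists were chosen with earlier results of these data known. Named with full statistics were the 6 members of highest DMSO mean, and at 0.12, 0.37 and 1.11 µM up to 5 largest rises and falls among called members with a mean of at least 5 CPM. Of the other pathway genes, the 3 largest falls at 0.37 µM were named. Other members given with values were chosen after their values were seen. IFNB1 and the markers CD3E, LILRA4, KRT5, KRT14, KRT1 and TYR were not analysed here. KRT10, the keratinocyte marker measured, had 441 to 502 CPM at 0.37 µM, against 325 to 570 CPM in DMSO, and 3 melanocyte markers summed to at most 5.02 CPM at 0.37 µM, against 3.02 CPM in DMSO. Some genes of the pathway list are not reported here by name.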

Additional observations from a re-analysis of the deposited data

Results flagged for a closer look

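In each group of 4 wells at 0.12, 0.37 and 1.11 µM the named members and the summed level were searched for a highest or lowest well whose gap to its neighbour exceeded Dixon's critical share of the group's range, and 4 of 54 such groups had one. Chance gives about 1 in 20 for normal values, a rate that need not hold for levels that include counts of 0. A gene counted in a single well of the group is always flagged. IFIT2 had 23.2 CPM in replicate 2 at 0.37 µM, where the other 3 wells had 6.83 to 8.80 CPM. At 1.11 µM it had 32.8 CPM in replicate 2, where the others had 1.55 to 4.76 CPM. ISG20 had 1.55 CPM, from 2 counts, in replicate 1 at 1.11 µM and 0 counts in the others. IFIH1 had 5.89 CPM in replicate 3 at 1.11 µM, where the others had 0 to 0.680 CPM.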

How the results depend on the processing

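The number of members called kept within 1.5 times of its value with DESeq2 size factors, no low-count filter and plate side as a covariate in each comparison. With a replicate block it was 0, 7, 5, 15 and 9 for the 5 doses of 0.12 µM and above, and 4 for 0.37 against 0.12 µM. That fit kept only DMSO replicates 1 to 4, so calls lost to the block and to fewer DMSO wells cannot be told apart. The numbers do not pair wells: same-numbered wells of different doses had a median correlation of deviations of -0.004, with 3 of 144 pairs over 0.1, so a call lost under the block is not described as a weaker effect. With DMSO restricted to rows K and L the number was 0, 7 and 7 for 0.12, 0.37 and 1.11 µM, 9 for 10 µM and 4 for 0.37 against 0.12 µM; this leaves 4 DMSO wells. The Wald test of DESeq2 called 13 members for 0.37 against 0.12 µM and 3 between the DMSO columns, and plate row as a block called 2 there. Without the wells at 3.33 and 10 µM, 19 members passed the F test over doses. Leaving out 1 well gave 0 to 1 members for 0.12 µM, 12 to 15 for 0.37 µM and for 1.11 µM, 19 to 21 for 3.33 µM, 10 to 15 for 10 µM, 3 to 8 for 0.37 against 0.12 µM, 12 to 17 for 1.11 against 0.37 µM and 28 to 32 for the F test. Shares of all genes called in these alternative fits are not given here, so the counts describe the members alone. The median r between members in DMSO was 0.0036 for those of at least 50 CPM and -0.0004 without C2 and J2, a setting added after seeing the data, and 0 of the 15 pairs passed within column 2. STAT2, not called, changed sign: at 0.37 µM it was 0.23 with rows K and L, and -0.17 to 0.16 with 1 well left out. At 1.11 µM it was -0.14 with the block, and -0.07 to 0.33 with 1 well left out. The cause was not tested. Keeping the genes of chromosome Y, also added later, left the numbers called as they were. At 3.33 and 10 µM depth limits the members: the median member had 2 counts over the 4 wells at 3.33 µM and 0 at 10 µM.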
